A study of Mus musculus with 48 samples.

Results

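The respiratory chain genes examined here encode the subunits of mitochondrial complexes I to V and the factors that assemble them. Members were the ATAC-seq peaks that overlap the body of a protein-coding gene whose symbol starts with Nduf, Uqcr, Sdh (a to d), Cox and a digit, or Atp5. Where a peak overlapped several genes, it was given to the gene whose boundary lay nearest the middle of the peak. This gave 116 of the 53868 peaks of the deposited table, lying in 89 of the 109 genes that the symbols name. Complex I (Nduf) had 50 peaks in 37 genes, complex II (Sdh) 14 in 8, complex III (Uqcr) 7 in 7, complex IV (Cox) 26 in 21 and complex V (Atp5) 19 in 16. A further 18 peaks overlap such a gene but were given to a neighbour, as at Cox4i1 (given to Emc8), Uqcrh (Lrrc41) and Ndufa4 (Phf14), and are not members. Of the genes without a member peak, the tissue-restricted forms Cox4i2, Cox6a2, Cox7b2, Cox8b and Cox8c and the copies Ndufb4b and Ndufb4c had no overlapping peak at all.

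Complex I takes electrons from NADH and complex II from succinate; both pass them to ubiquinone, complex III hands them on to cytochrome c, and complex IV to oxygen. Complexes I, III and IV pump protons, and complex V, the ATP synthase, uses the gradient to make ATP. Most subunits come from nuclear genes with CpG-rich promoters bound by factors such as NRF1, the ETS protein GABP and YY1. In CD8 T cells, respiration supports the long-lived and progenitor-like states, and exhausted cells in tumours are known for damaged mitochondria.

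ATAC-seq uses the Tn5 transposase to tag accessible DNA, so reads in a peak measure how open that stretch is, and not how much RNA the gene makes. The cells were Cas9-expressing CD45.1 OT-1 CD8 T cells, whose receptor recognises an ovalbumin peptide, given 1 guide RNA from a lentiviral vector with an ametrine reporter, transferred into young or aged mice and sorted from B16-OVA melanomas (a mouse line expressing ovalbumin) on day 15 of tumour growth. The guide groups are Zfp219KO (a zinc finger protein), Dusp5KO (a phosphatase that acts on ERK in the nucleus) and the OTC control, each with Cas9 and the vector, and titles with A or Y were taken to mean an aged or a young host, whose ages in months the labels do not give. The sorted states are Tprog (progenitor exhausted, Slamf6 only), Ttran (transitory, Slamf6 and Tim-3), Tterm (terminally exhausted, Tim-3 only) and Ttad (age-associated dysfunctional, neither marker). Aged hosts gave 2 libraries for each guide in all 4 states; young hosts gave 2 for each guide in Tprog and 3 in Ttran and Tterm, with no Ttad library analysed here. Each library is a pool of sorted cells from several mice, 5000 to 50000 cells per guide and state, and the labels do not say which mice went into which pool, so p-values measure the spread between these pools. Whether the guides cut their targets cannot be read from reads in peaks and was not checked here.

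Reads in peaks ran from 5638413 to 16159054 in the 24 aged-host libraries and from 6589023 to 29942755 in the 24 young-host libraries. Peaks that hold an annotated start of a gene took 36.5% to 41.1% of normalized reads, and the members 0.358% to 0.410%. All 9 listed CD8 T cell genes (such as Cd8a, Cd3e and Lck) had at least 493 normalized reads in every library. Thy1 stood apart in 6 aged-host libraries, OTC Ttran and Ttad and Zfp219 Ttran, at 3392 to 5320 against 527 to 1408 in the other 42. Of 22 genes of other cells, 12 had no overlapping peak (among them Cd79a, Ms4a1, Lyz2, Csf1r, Csf3r, Foxp3, Ncr1, Tyr, Dct, Tyrp1 and Sox10), and 10 had one. Among these, Klrb1c of NK cells had 0 to 33.1 normalized reads, Pax5 of B cells 279.9 to 672, Spi1 of myeloid cells 331 to 677, Cd4 142 to 517 and Mlana of melanocytes 103 to 246. Pmel, also melanocytic, had 2053 to 2960, in peaks it shares with Rab5b and Cdk2. Among all 116 members, 109 had at least 1 read in every library and 7 had a library at 0. In bulk pools, fewer cells with an open site and a less open site in every cell cannot be told apart.

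The promoters that carry the results below are printed first, 300 bases each (250 before and 50 after the start, 5′ to 3′ on the gene's strand, RefSeq, GRCm38.p6). Capitals mark matches on either strand to 3 short motifs known at respiratory chain promoters, the consensus of NRF1, CCGGAAG for ETS factors and AAGATGGC for YY1; the ETS and YY1 letters can overlap. Ndufs8, Sdhaf1, Cox14 and Atp5g1 are shown as the members with the strongest peaks of complexes I, II, IV and V. Ndufaf8 and Atp5b are shown because, with Atp5g1, their difference between Tprog and Tterm was itself different in aged and young hosts. Ndufs3 is shown for its rise with the Zfp219 guide, and Sdha for its 3 NRF1 matches. They lie at chr19:3912725-3913024 (minus strand), chr7:30322326-30322625 (minus), chr15:99725368-99725667 (plus), chr11:96075582-96075881 (minus), chr11:120098684-120098983 (plus), chr10:128083057-128083356 (plus), chr2:90904672-90904971 (minus) and chr13:74350191-74350490 (minus), in the order below.
Ndufs8: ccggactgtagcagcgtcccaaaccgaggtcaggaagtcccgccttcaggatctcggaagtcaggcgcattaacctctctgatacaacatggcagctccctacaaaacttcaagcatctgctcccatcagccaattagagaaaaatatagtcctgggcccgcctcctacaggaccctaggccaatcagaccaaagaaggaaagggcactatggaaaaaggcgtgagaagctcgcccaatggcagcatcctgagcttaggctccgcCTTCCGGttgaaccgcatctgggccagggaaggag
Sdhaf1: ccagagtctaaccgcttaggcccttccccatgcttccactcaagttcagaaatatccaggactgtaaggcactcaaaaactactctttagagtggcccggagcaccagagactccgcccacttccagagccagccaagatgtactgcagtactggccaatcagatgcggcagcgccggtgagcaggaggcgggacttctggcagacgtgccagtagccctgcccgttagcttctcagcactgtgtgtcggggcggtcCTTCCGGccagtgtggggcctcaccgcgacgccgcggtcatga
Cox14: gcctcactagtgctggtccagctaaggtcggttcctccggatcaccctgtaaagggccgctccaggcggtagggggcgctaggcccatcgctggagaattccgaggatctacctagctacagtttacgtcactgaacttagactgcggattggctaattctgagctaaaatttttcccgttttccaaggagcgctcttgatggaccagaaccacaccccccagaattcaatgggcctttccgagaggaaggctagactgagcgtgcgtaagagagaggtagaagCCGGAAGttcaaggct
Atp5g1: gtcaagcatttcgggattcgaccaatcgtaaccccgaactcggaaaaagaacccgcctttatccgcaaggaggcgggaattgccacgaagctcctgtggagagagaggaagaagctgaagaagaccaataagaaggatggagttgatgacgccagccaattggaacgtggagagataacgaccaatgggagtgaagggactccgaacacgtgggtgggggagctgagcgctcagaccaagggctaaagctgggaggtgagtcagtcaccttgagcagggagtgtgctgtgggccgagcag
Ndufaf8: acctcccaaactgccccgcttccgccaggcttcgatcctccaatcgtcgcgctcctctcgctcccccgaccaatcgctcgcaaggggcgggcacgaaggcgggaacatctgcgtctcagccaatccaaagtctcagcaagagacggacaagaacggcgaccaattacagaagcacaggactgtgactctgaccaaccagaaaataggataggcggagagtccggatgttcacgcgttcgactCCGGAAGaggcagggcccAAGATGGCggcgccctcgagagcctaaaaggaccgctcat
Atp5b: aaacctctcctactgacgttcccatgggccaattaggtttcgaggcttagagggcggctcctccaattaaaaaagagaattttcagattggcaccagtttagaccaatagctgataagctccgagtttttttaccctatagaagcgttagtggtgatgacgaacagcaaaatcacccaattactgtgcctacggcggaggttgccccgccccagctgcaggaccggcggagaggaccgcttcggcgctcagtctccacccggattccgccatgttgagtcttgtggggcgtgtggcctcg
Ndufs3: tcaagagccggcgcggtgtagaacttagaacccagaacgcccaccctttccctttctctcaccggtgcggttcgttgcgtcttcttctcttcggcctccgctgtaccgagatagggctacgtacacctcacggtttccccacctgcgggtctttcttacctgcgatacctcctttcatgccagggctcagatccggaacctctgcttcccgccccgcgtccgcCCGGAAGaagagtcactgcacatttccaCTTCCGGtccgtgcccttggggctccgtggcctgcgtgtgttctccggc
Sdha: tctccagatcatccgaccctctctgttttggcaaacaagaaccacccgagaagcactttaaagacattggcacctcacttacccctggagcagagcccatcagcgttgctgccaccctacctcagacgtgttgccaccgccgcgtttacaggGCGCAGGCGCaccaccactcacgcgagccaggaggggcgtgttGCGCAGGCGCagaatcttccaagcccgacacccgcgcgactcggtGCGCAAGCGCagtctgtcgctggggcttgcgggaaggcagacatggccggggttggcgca

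These matches are letters in a window and not shown to be bound. NRF1 letters stood in 22 of 95 promoters of 89 named genes found in the table (23.2%), against 6.38% of all 21262 promoters and 11.1% of the 11287 whose start lies in a peak. ETS letters stood in 28 (29.5%, against 11.6% and 19.6%) and YY1 letters in 13 (13.7%, against 3.05% and 4.65%). The CCAAT letters (41.1%, against 38.2% and 38.3%) and the GC box GGGCGG (48.4%, against 46.2% and 68.1%) were closer to, or below, those shares. In all, 51 genes had at least 1 of the first 3 motifs. Sdha, the flavoprotein of complex II, had only NRF1 matches among the 3, and Ndufaf8 an ETS and a YY1 match; Atp5g1 and Atp5b, printed without capitals, had none.

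Accessibility differed widely between members. Of 116 peaks, 74 held a start of their own gene, 25 lay away from every start that the promoter table gives for it, and for 17 the table had no start. Per kb of peak, the mean over 48 libraries ran from 7.51 to 1397 normalized reads with a median of 273, close to the 311 of all 9072 peaks that hold a start. The strongest of each complex were Atp5g1 (complex V, a subunit of the rotating c ring; 1397 per kb), Uqcrq (complex III, a small subunit; 1053 per kb), Ndufs8 (complex I, an iron-sulfur subunit; 980 per kb), Sdhaf1 (complex II, which helps insert iron-sulfur clusters; 797 per kb) and Cox14 (complex IV, an early assembly factor; 724 per kb). The Uqcrq peak also overlaps Gdf9 and the Cox14 peak Gpd1, and reads of such shared peaks cannot be divided between the genes. Peaks away from the start had a median of 127 per kb. The weakest members were peaks inside 2 assembly factor genes, Ndufaf6 of complex I at 7.51 per kb and Sdhaf3 of complex II at 8.54 per kb.

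**Figure D1:**
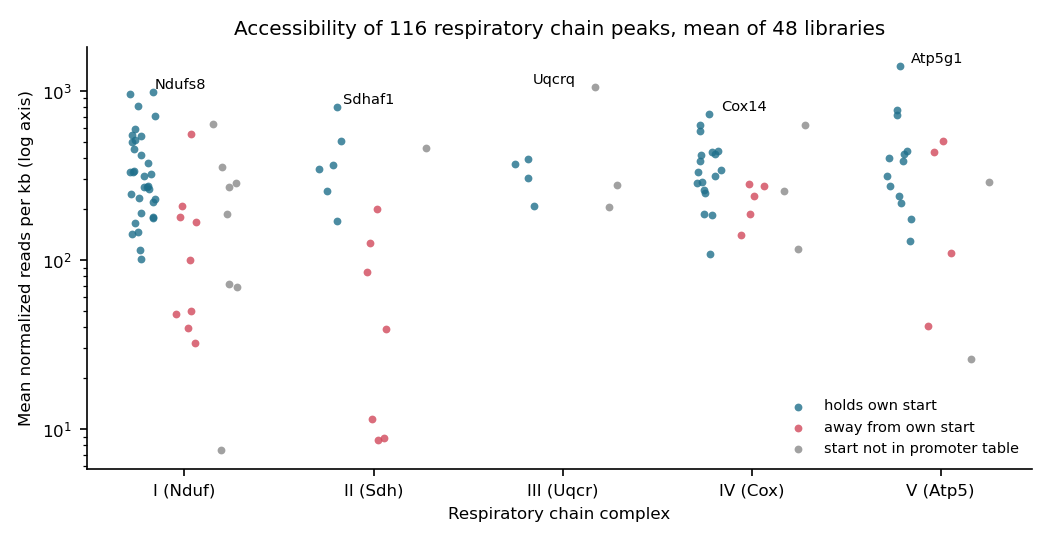
Mean normalized reads per kb of peak (log axis) for each of 116 member peaks, by complex; each dot is a peak, coloured by whether it holds a start of its own gene. The strongest peak of each complex is named, from Cox14 at 724 to Atp5g1 at 1397, and the peaks away from starts lie lower, at a median of 127.

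Across the 21 groups, members at gene starts varied little and those away from starts varied much. The ratio of the highest to the lowest group mean had a median of 1.53 in members, against 1.49 in all peaks that hold a start and 2.48 in all peaks. It was over 2 in 26 members (22.4%), against 14.4% of peaks with a start and 63.7% of all peaks. By position, it was over 2 in 1.35% of the 74 peaks at their own start and in 80.0% of the 25 away from it, which are weaker and so carry more counting error. By role, it was over 2 in 46.9% of 32 assembly factor peaks and in 13.6% of 81 subunit peaks. Role was not told apart from position, since many peaks away from starts, as in Ndufaf2, Sdhaf2 and Cox10, belong to assembly factors. Cox8a, a subunit of complex IV, had the smallest ratio of the genes named here, 1.18, with 745 to 970 normalized reads in the 48 libraries. The muscle form Cox7a1 (188 to 351), the testis form Cox6b2 (94.1 to 245) and the hypoxia-linked Ndufa4l2 (501 to 721) had open peaks in every library. Over the 21 group means, the peaks with the pattern most like that of the strongest members were one in Usp22 for Ndufs8 (Pearson's r 0.918), one in Rora for Sdhaf1 (0.919, after an unassigned peak at 0.927), one in Orai2 for Uqcrq (0.841), one in Stk10 for Cox14 (0.904) and one in Agpat1 for Atp5g1 (0.923); groups share normalization and guides, so these are descriptions only.

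Between the sorted states of OTC cells, few members moved, and those that moved most lay inside genes, away from their starts. The test was limma on log2(value + 1) with all 48 libraries in the fit; a peak was called at a Benjamini-Hochberg adjusted p under 0.05 over all 53868 peaks, and fold changes are differences of log2(value + 1), so that those of weak peaks come out too small. In Tprog against Tterm, 13 members were called in aged hosts (5 higher and 8 lower; 20.1% of all peaks were called, 8.88% higher and 11.2% lower) and 23 in young hosts (10 higher and 13 lower; 26.5% of all peaks, 13.9% higher and 12.6% lower). In members this is 11.2% and 19.8%, near the 11.1% and 24.4% of all peaks that hold a start. The median log2 fold change of the members was 0.009 in aged and -0.022 in young hosts, against 0.014 and 0.007 over all peaks. By role, 8 of 81 subunit peaks and 5 of 32 assembly factor peaks were called in aged hosts, and 15 and 7 in young hosts. Some genes of other cells differed with the states too, with no overlap between groups: Pax5, the one B cell gene of 4 with a peak, had 514 to 523 normalized reads in aged Tprog and 285 to 337 in aged Tterm, and 516 to 589 and 280 to 309 in young cells. The summed CD4 T cell list (2 of 3 genes with a peak, none at Foxp3) went the other way, at 1120 to 1151 against 1581 to 1599 in aged and 1188 to 1346 against 1581 to 1620 in young cells. The melanocyte list (3 of 7 with a peak) differed in young cells, at 3502 to 3530 against 2765 to 2904. The part of other cells in these state results was not tested. Without aged OTC Tprog replicate 1 the aged count was 8, and without young OTC Tprog replicate 2 or Tterm replicate 3 the young count was 10 or 15.

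**Figure D2:**
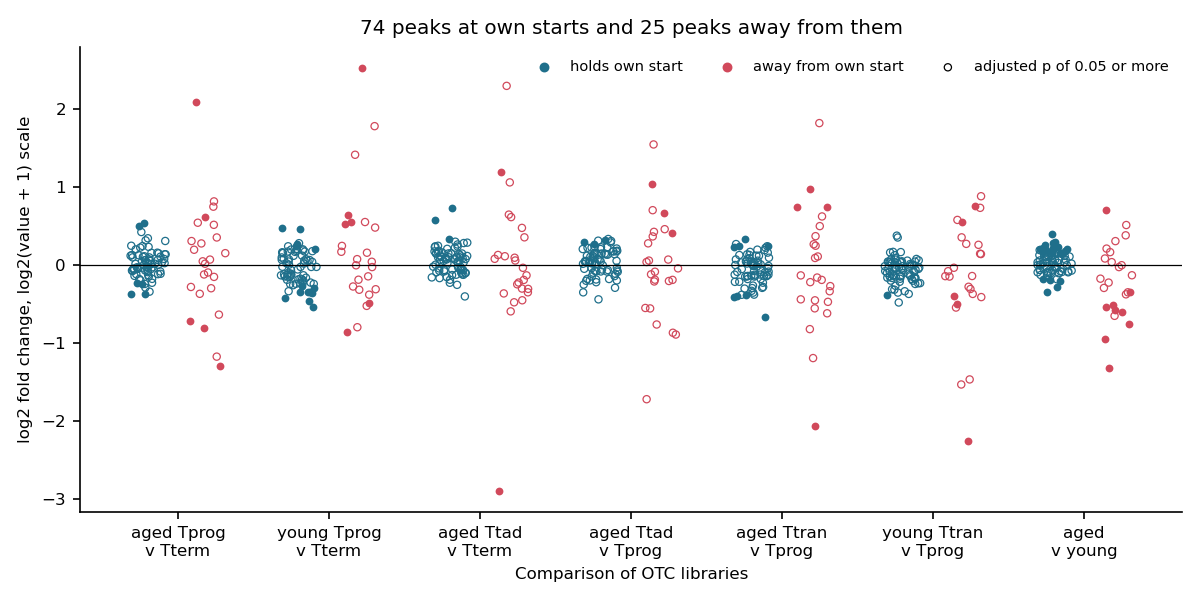
log2 fold changes of the 74 members that hold a start of their own gene and the 25 that lie away from it, in 6 state comparisons and in aged against young OTC cells; filled dots passed an adjusted p of 0.05 and open dots did not. Peaks at starts lie close to 0, and the called changes over 1 in size are in peaks away from starts, with Cox7a2 at 2.09 and 2.53 in Tprog against Tterm.

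Cox7a2, the widely expressed form of a complex IV subunit, had the largest rise of a called member. This peak (chr9:79755928-79756359) lies wholly inside the gene, 3710 bp from its start, and 12582 bp from the nearest other gene, Tmem30a. In aged OTC cells it had 319 and 259 normalized reads in Tprog, 46.8 and 95.3 in Tterm, 55.7 and 82.9 in Ttran, and 171 and 140 in Ttad. In young OTC cells it had 284 and 308 in Tprog, 61.3, 34.6 and 60.7 in Tterm, and 78.6, 64.1 and 45.4 in Ttran. Both Tprog groups lie above every Ttran and Tterm library, and aged Ttad lies between them. The Tprog to Tterm log2 fold change was 2.09 (SE 0.30, adjusted p = 1.86e-08, 2 against 2 libraries, limma) in aged and 2.53 (SE 0.27, adjusted p = 6.02e-13, 2 against 3) in young hosts. The peak at the Cox7a2 start had 405 to 545 normalized reads across the 16 OTC libraries and was not called between Tprog and Tterm.

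Internal peaks in 3 further genes were lower in Tprog than in Tterm, that of Ndufa10 called in aged hosts only. In Ndufa10, an accessory subunit of complex I, the peak (chr1:92468652-92469380, 4742 bp from the start) had 44.2 and 66.5 normalized reads in aged Tprog and 117 and 153 in aged Tterm (log2 fold change -1.29, SE 0.24, adjusted p = 1.16e-05, limma). In Cox5a, a complex IV subunit, the peak (chr9:57523880-57524852, 3134 bp from the start) had 105 and 148 against 202 and 236 in aged cells (-0.80, SE 0.18, adjusted p = 0.000486) and 166 and 184 against 341, 291 and 325 in young cells (-0.86, SE 0.17, adjusted p = 2.71e-05). None of these groups overlap. In Ndufs4, an accessory subunit whose loss causes a Leigh-like disease, the peak (chr13:114304307-114305397) lies 83242 bp from the start and 146845 bp from the nearest other gene, Arl15. It had 331 and 347 in aged Tprog, 586 and 524 in aged Tterm (-0.71, SE 0.11, adjusted p = 3.53e-07), and 436 and 513 against 642, 646 and 693 in young cells (-0.48, SE 0.10, adjusted p = 0.000114). This Ndufs4 peak was called in 9 of the 13 comparisons of groups, more than any other member. Without aged OTC Tprog replicate 1, the Cox5a difference in aged hosts had an adjusted p of 0.085.

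Assembly factors included peaks that were higher in Tprog. Ndufaf6, which acts early in complex I assembly, had an internal peak (chr4:11065199-11065924) with 98.5 and 78.1 normalized reads in aged Tprog against 45.8 and 28.4 in aged Tterm (log2 fold change 1.26, SE 0.26, adjusted p = 0.00012, limma). In young cells it had 181 and 210 against 121, 121 and 122 (0.68, SE 0.24, adjusted p = 0.0266), a call that was lost in 5 of 14 alternatives. Cox10 makes heme A for complex IV, and its internal peak at chr11:63984238-63985899, 94404 bp from the start, had 675 and 643 in young Tprog against 417, 488 and 469 in young Tterm (0.53, SE 0.12, adjusted p = 0.000386). In aged cells the same peak had 360 and 430 against 368 and 339, groups that overlap. At its start, Sdhaf3, an assembly factor of complex II, had 351 and 362 in aged Tprog against 243 and 246 in aged Tterm (0.54, SE 0.15, adjusted p = 0.00373), and in young cells 329 and 331 against 356, 292 and 330.

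**Figure D3:**
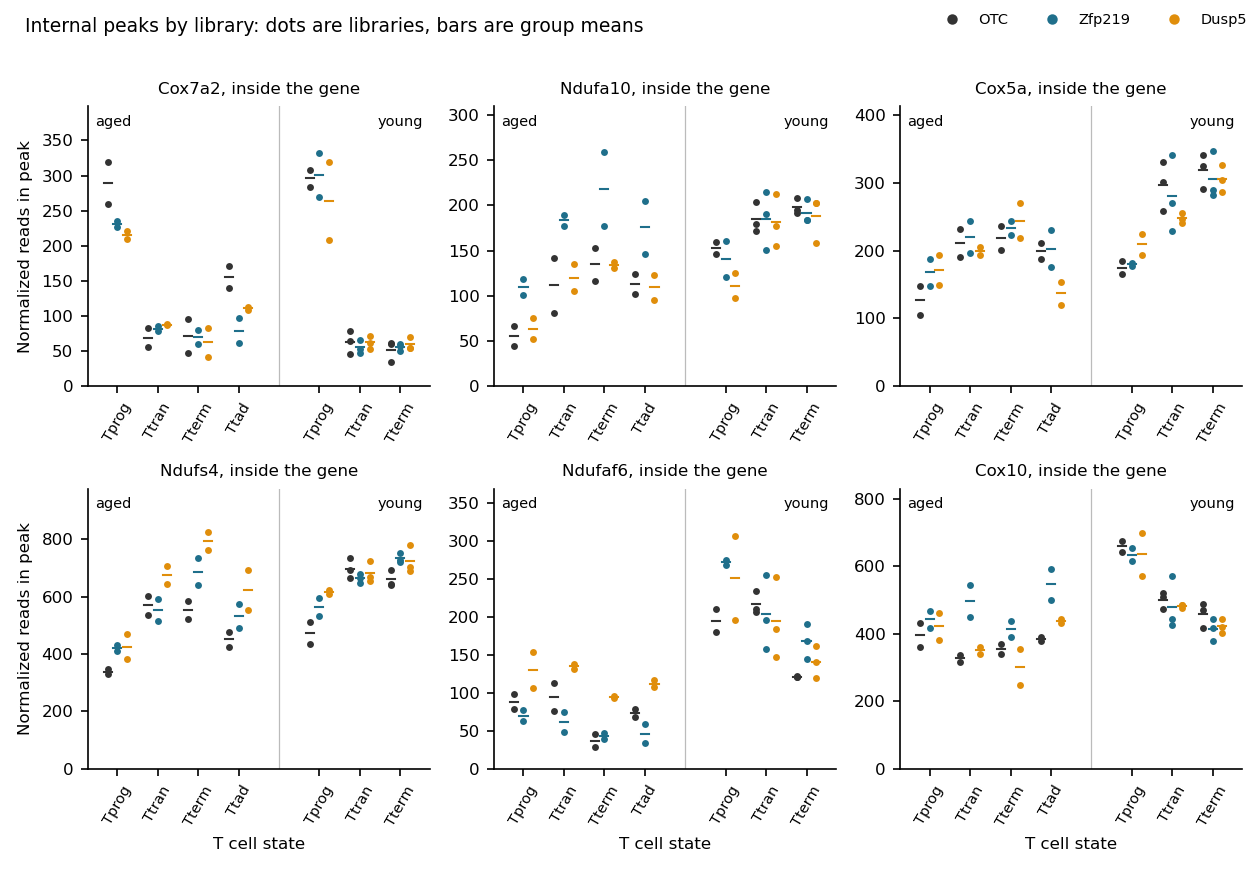
Normalized reads in 6 internal peaks, by state and host; dots are libraries, bars are group means, and colours are the guides. Cox7a2 is highest in Tprog at both ages (259 and 319 in aged OTC cells), Cox5a is higher in Tterm (202 and 236) than in Tprog (105 and 148), and Ndufa10, Ndufaf6 and Cox10 are lower in aged than in young OTC cells.

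In aged hosts, Ttran against Tprog gave 13 called members (8 higher and 5 lower; 17% of all peaks, 9.99% higher and 6.98% lower), and in young hosts 7 (3 higher and 4 lower; 16.9% of all peaks, 9.07% higher and 7.82% lower). Quantile normalization turned the aged split to 4 higher and 6 lower. The internal peaks of Cox7a2, Cox5a and Ndufs4 were called at both ages, with Cox7a2 lower in Ttran by a log2 difference of -2.07 (SE 0.30, adjusted p = 4.09e-08) in aged and -2.26 (SE 0.27, adjusted p = 1.37e-10) in young hosts. Cox5a was higher by 0.75 and 0.75, and Ndufs4 by 0.75 and 0.56 on the log2 scale. The aged count was 4 without OTC Tprog replicate 1 or without OTC Ttran replicate 2, and 7 without OTC Tprog replicate 2. The young count was 3 without OTC Tprog replicate 2 and 11 without OTC Ttran replicate 2.

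Ttad, the state named for age, differed from Tterm in 7 members (5 higher and 2 lower; 7.28% of all peaks, 3.02% higher and 4.26% lower) and from Tprog in 8 (7 higher and 1 lower; 6.55% of all peaks, 3.82% higher and 2.73% lower). Of all peaks that hold a start, 1.86% were higher and 1.49% lower against Tterm, and 3.94% and 0.716% against Tprog. Against Tterm, the Cox7a2 internal peak was higher (log2 fold change 1.20, SE 0.30, adjusted p = 0.00395), as were the start peaks of Ndufs4 (235 and 266 normalized reads against 143 and 157; 0.74, SE 0.19, adjusted p = 0.00609) and Sdhaf3 (411 and 326 against 243 and 246; 0.58, SE 0.15, adjusted p = 0.00546). Against Tprog, the internal peaks of Ndufa10 (124 and 102 against 44.2 and 66.5; 1.04, SE 0.24, adjusted p = 0.00189) and Cox5a (188 and 212 against 105 and 148; 0.67, SE 0.18, adjusted p = 0.0129) were higher. The start peak of Ndufaf8, an assembly factor of complex I, was also higher (1201 and 1310 against 1009 and 995; 0.32, SE 0.08, adjusted p = 0.00298). The called Sdhaf2 peak at chr19:10513380 had 0 and 7.39 normalized reads in Ttad against 28.3 and 14.7 in Tterm, too few for a fold. The count against Tterm was 1 without OTC Tterm replicate 1, 2 without Ttad replicate 1 and 4 without Ttad replicate 2. The count against Tprog was 1 without OTC Tprog replicate 1, 5 without Tprog replicate 2 and 2 without Ttad replicate 1.

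At 3 starts, the difference between Tprog and Tterm itself differed between the ages, and all 3 had a lower value in aged Tprog than in aged Tterm and a higher one in young Tprog than in young Tterm (3 members called, 2.59%; 2.32% of all peaks were called in this test, 0.512% higher and 1.81% lower). At Atp5g1 the aged OTC libraries had 1470 and 1425 normalized reads in Tprog and 1546 and 1656 in Tterm; the young ones had 1800 and 1837 in Tprog and 1320, 1341 and 1304 in Tterm. The log2 fold change was -0.14 (SE 0.08, adjusted p = 0.187) in aged and 0.46 (SE 0.07) in young hosts, a difference of -0.60 (SE 0.10, adjusted p = 4.11e-05, limma). Young Tprog lies above every aged Tprog and Tterm library, and young Tterm below them. At Ndufaf8, whose peak also overlaps Tepsin, aged cells had 1009 and 995 in Tprog and 1257 and 1322 in Tterm, and young cells 1407 and 1397 against 1229, 1164 and 1161. The difference of the fold changes was -0.61 (SE 0.10, adjusted p = 4.1e-05), with -0.36 in aged and 0.24 in young hosts. At Atp5b, the catalytic beta subunit of the ATP synthase, the values were 875 and 836 against 979 and 976 in aged cells, and 1046 and 1123 against 907, 966 and 946 in young cells (-0.40, SE 0.12, adjusted p = 0.0421), with log2 fold changes of -0.19 (adjusted p = 0.103) and 0.21 (adjusted p = 0.0396). The Atp5g1 and Ndufaf8 differences were called under all 18 alternatives; that of Atp5b was lost under 12 of 18.

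**Figure D4:**
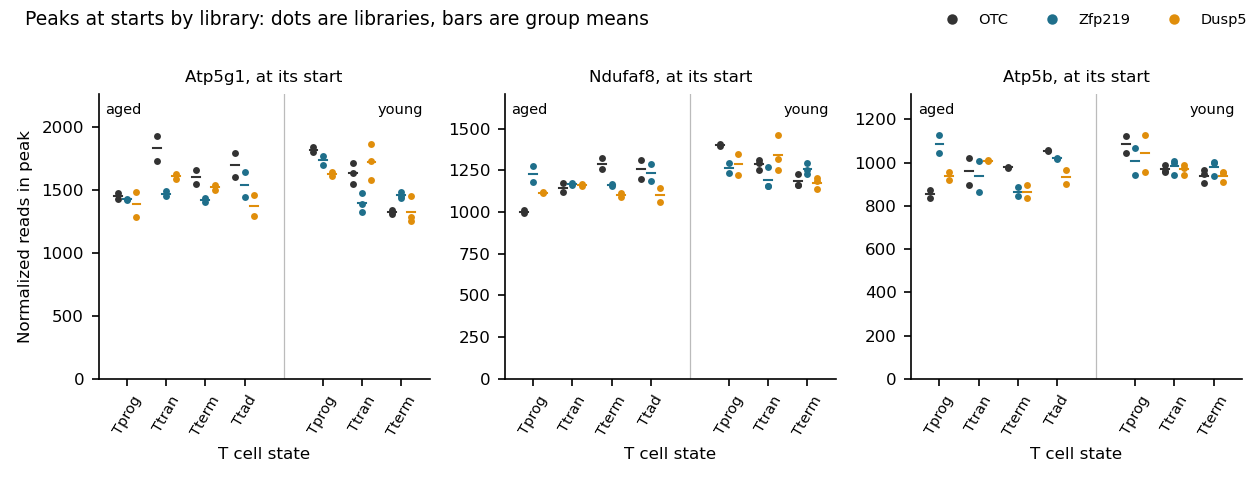
Normalized reads in the start peaks of Atp5g1, Ndufaf8 and Atp5b by state and host; dots are libraries, bars are group means, and colours are the guides. In OTC cells (black) Tprog lies below Tterm in aged hosts and above it in young hosts, from 995 and 1009 to 1257 and 1322 for Ndufaf8 in aged hosts.

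Aged against young OTC cells, averaged over Tprog, Ttran and Tterm, gave 39 called members (20 higher and 19 lower; 36.5% of all peaks were called, 17.3% higher and 19.1% lower, and 33.6% of members). Among members, the direction went with position. Of the 74 peaks at their own start, 17 were higher and 5 lower in aged hosts. Of the 25 peaks away from their own start, 1 was higher and 8 lower. Over all peaks that hold a start, 16.3% were higher and 12.5% lower. This count was not made over all peaks that hold no start, so the 25 have no matching background share. The medians of these 2 classes of members were 0.038 and -0.222, against 0.002 over all peaks and 0.016 over all peaks that hold a start. By complex, 8 of 19 complex V peaks were higher and 2 lower, and 2 of 26 complex IV peaks higher and 6 lower. In the column names, the numbers after the letter S run anew in the aged and in the young libraries. What these numbers stand for is not given, so host age cannot be told apart from a batch that may go with them. Young libraries were also deeper. With reads thinned to the smallest total, 28 members were called, 9 higher and 19 lower. The summed peaks of the myeloid genes with a peak (3 of 6) were also lower in aged OTC cells, at 821 to 901 normalized reads in these 3 states against 1046 to 1173, with no peak at Lyz2, Csf1r or Csf3r; the part of other cells in the result was not tested.

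The lower members were led by the internal peaks already named. Ndufaf6 (chr4:11065199) had 28.4 to 113 normalized reads (median 77.3) in the 6 aged libraries and 121 to 233 (median 193) in the 8 young ones, with no overlap; its log2 fold change was -1.36 (SE 0.14, adjusted p = 1.97e-13, limma), lower in all 3 states. Ndufa10 (chr1:92468652) had 44.2 to 153 (median 98.9) against 146 to 209 (median 186), and its log2 fold change was -0.94 (SE 0.13, adjusted p = 2.64e-09). Its groups do not overlap within any state. Cox10 was lower at 3 internal peaks, by -0.76 (chr11:63974844, SE 0.12, adjusted p = 2.16e-07), -0.57 (chr11:63984238, SE 0.07, adjusted p = 1.64e-10) and -0.59 (chr11:63989234), and at its start by -0.20. A weak Atp5l peak (chr9:44913391, 3.19 to 18.3 against 15.4 to 44.3) was lower by -1.32 (SE 0.38, adjusted p = 0.00365). Atp5l belongs to the membrane part of the ATP synthase. A Ndufab1 peak away from its start and the internal peaks of Cox5a and Ndufs4 were lower by -0.53, -0.50 and -0.34.

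Of the 20 higher members, 17 were start peaks, each with a log2 fold change of at most 0.40. Atp5pb, part of the stalk of the ATP synthase, had 690 to 837 normalized reads (median 781) in aged and 558 to 786 (median 624) in young libraries (log2 fold change 0.28, SE 0.06, adjusted p = 2.06e-05, limma); within each state its groups do not overlap. Its peak also overlaps Wdr77. Sdhaf1 had 1441 to 1755 against 1305 to 1544 (0.16, SE 0.04, adjusted p = 0.00112), and Cox6b2, the testis form, 153 to 226 against 116 to 187 (0.40, SE 0.12, adjusted p = 0.00551). The c ring genes Atp5g3 and Atp5g2 were higher by 0.23 and 0.24, and Sdha by 0.19 at its start. The 3 higher members that do not hold a start in the table were Atp5mpl (0.34) and weak peaks of Ndufaf2 (20.7 to 54.2 normalized reads against 15.8 to 29.6; 0.70) and Atp5a1 (10.2 to 17.7 against 0 to 20.9, too few for a fold). The state comparisons and this one use the same OTC libraries.

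With the Zfp219 guide in aged hosts, averaged over the 4 states, 36 members were called against OTC, 30 higher and 6 lower (25.8% of all peaks were called, 12.1% higher and 13.7% lower). All peaks that hold a start also leaned up, with 1923 higher and 576 lower of 9072 (27.5%). The members' median log2 fold change was 0.092, against 0.066 in peaks with a start and 0.006 in all peaks, and 87 of 116 members were above 0. By complex, 11 of 50 complex I peaks were higher and 2 lower, 3 and 1 of 14 in complex II, 2 and 0 of 7 in complex III, 10 and 1 of 26 in complex IV, and 4 and 2 of 19 in complex V. State by state, the members' median ran from 0.068 (Tterm) and 0.074 (Tprog) to 0.097 (Ttad) and 0.143 (Ttran). Start peaks took 39.2% to 41.1% of reads in the aged Zfp219 libraries and 37.0% to 38.9% in the aged OTC libraries, with no overlap, and members 0.385% to 0.410% against 0.358% to 0.386%; the part of this shift in the result was not tested. The summed myeloid list was higher than in OTC, with no overlap, in 3 of the 4 states (808 to 1004 over the aged Zfp219 libraries, 756 to 901 over the aged OTC libraries). The melanocyte list and the summed sorting markers (Slamf6 and Tim-3) were each lower in 3 states and higher in 1. The CD8 T cell list was lower in 2 states and higher in 1. The part of these lists was not tested either.

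The largest rises with Zfp219 were again internal. Cox10 (chr11:63989234-63989805, 89952 bp from the start) had 116 to 155 normalized reads (median 132) in the 8 Zfp219 libraries and 56.6 to 104 (median 76.5) in the 8 OTC libraries. These groups do not overlap; the log2 fold change was 0.79 (SE 0.13, adjusted p = 6.88e-07, limma), and it was above 0 in all 4 states. The other 3 Cox10 peaks were also higher, by 0.44 (chr11:63974844), 0.37 (chr11:63984238) and, at the start, 0.23 (512 to 559 against 380 to 505, SE 0.06, adjusted p = 0.00375). Ndufa10 (chr1:92468652) had 101 to 259 (median 177) against 44.2 to 153 (median 109), with a log2 difference of 0.76 (SE 0.12, adjusted p = 1.93e-07), and its groups do not overlap within any state. At its start, the complex I core subunit Ndufs3 had 291 to 371 against 217 to 337 (0.30, SE 0.08, adjusted p = 0.00265). The core subunit Ndufs1, whose start the promoter table does not give, had 549 to 698 against 418 to 635 (0.22, SE 0.06, adjusted p = 0.00287). The peak of Ndufs3 also overlaps Kbtbd4 and that of Ndufs1 Eef1b2. Among the 3 higher peaks of complex II were the start peaks of its subunits Sdhb and Sdhd, by 0.14 and 0.17; the Sdhd peak also overlaps Timm8b.

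The 6 members that fell with Zfp219 in aged hosts were an internal peak each of Ndufaf2 and Ndufaf6 and the start peaks of Sdhaf1, Atp5e, Atp5g1 and Cox14. An internal peak of Ndufaf2, a chaperone of complex I (chr13:108071777-108072637, 86418 bp from the start), had 38.2 to 83.7 normalized reads (median 59.7) against 64.1 to 119 (median 95.2) in OTC, a log2 difference of -0.68 (SE 0.16, adjusted p = 0.000416, limma). Sdhaf1 had 1247 to 1497 (median 1381) against 1441 to 1755 (median 1605), a log2 difference of -0.21 (SE 0.04, adjusted p = 5.74e-06), and was lower in all 4 states. Atp5e, Atp5g1 and Cox14 were lower by -0.17, -0.16 and -0.13, and the Ndufaf6 internal peak by -0.36, with overlapping groups. Atp5g1, Sdhaf1 and Cox14, each the strongest member of its complex per kb, thus fell while most called members rose. In Ttad alone, 8 members were called (7 higher and 1 lower; 8.23% of all peaks, 3.66% higher and 4.56% lower). All peaks that hold a start also leaned up there, with 4.95% higher and 1.5% lower. Among the called members were the Cox10 peak at chr11:63989234 (133 and 155 against 66.5 and 83.8) and the Cox7a2 internal peak, which was lower (61.4 and 96.7 against 140 and 171; -0.999, SE 0.30, adjusted p = 0.0207). The Ttad count was 1 without aged Zfp219 Ttad replicate 2, and 2 or 5 without aged OTC Ttad replicate 1 or 2.

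In young hosts the Zfp219 guide gave 6 called members, 3 higher and 3 lower (7.07% of all peaks, 1.92% higher and 5.15% lower). None of the 6 had groups that stayed apart in every state, a count that was not made over all peaks. The summed CD4 T cell, CD8 T cell and melanocyte lists were each lower than in OTC in 3 of 3 states with no overlap. For the CD4 T cell list the range was 975 to 1502 against 1188 to 1620 over all libraries. The sorting markers were lower in 2 states, and the B cell list was higher in 1. The part of these lists was not tested. Ndufc1, an accessory subunit of complex I, had 263 to 355 normalized reads against 227 to 320 (log2 fold change 0.30, SE 0.08, adjusted p = 0.0138, limma), and Cox14 1013 to 1154 against 1128 to 1365 (-0.16, SE 0.04, adjusted p = 0.00524). Without young OTC Tprog replicate 1 the count was 2, and without young OTC Tterm replicate 1 or either young Zfp219 Tprog library it was 3.

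The test of the difference between the ages, over the 3 states both have, called 5 members (4 higher and 1 lower in aged hosts; 9.11% of all peaks, 4.09% higher and 5.01% lower). The Zfp219 log2 fold change of Ndufa10 (chr1:92468652) was 0.81 in aged and -0.06 in young hosts, a difference of 0.88 (SE 0.18, adjusted p = 0.000406, limma); young Zfp219 libraries had 121 to 214 normalized reads and young OTC libraries 146 to 209. The Cox10 peak at chr11:63984238 gave 0.33 and -0.09 (difference 0.42, SE 0.10, adjusted p = 0.00317), with 378 to 653 against 417 to 675 in young hosts. The start peak of Cox5b, a complex IV subunit, gave 0.32 and -0.08 (0.40, SE 0.10, adjusted p = 0.00359). Ndufaf2 (chr13:108071777) gave -0.64 and 0.21 (-0.85, SE 0.24, adjusted p = 0.0124). The start peak of Cox7a2 gave 0.32 and 0.04 (0.28, SE 0.09, adjusted p = 0.0374), a call that was lost under 15 of 37 alternatives. The count was 9 without aged OTC Ttran replicate 2 and 8 without young Zfp219 Ttran replicate 1. Without young OTC Tprog replicate 2 or young Zfp219 Tprog replicate 1 the Ndufaf2 adjusted p was 0.0535 or 0.0516. Ndufa10 and Cox10 are also among the members lower in aged than in young OTC cells; both comparisons use the aged OTC libraries, so their signs are not independent. Side by side, the Ndufa10 medians were 98.9 in aged OTC cells of 3 states, 177 in aged Zfp219 cells of 4 states and 186 in young OTC cells of 3 states.

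**Figure D5:**
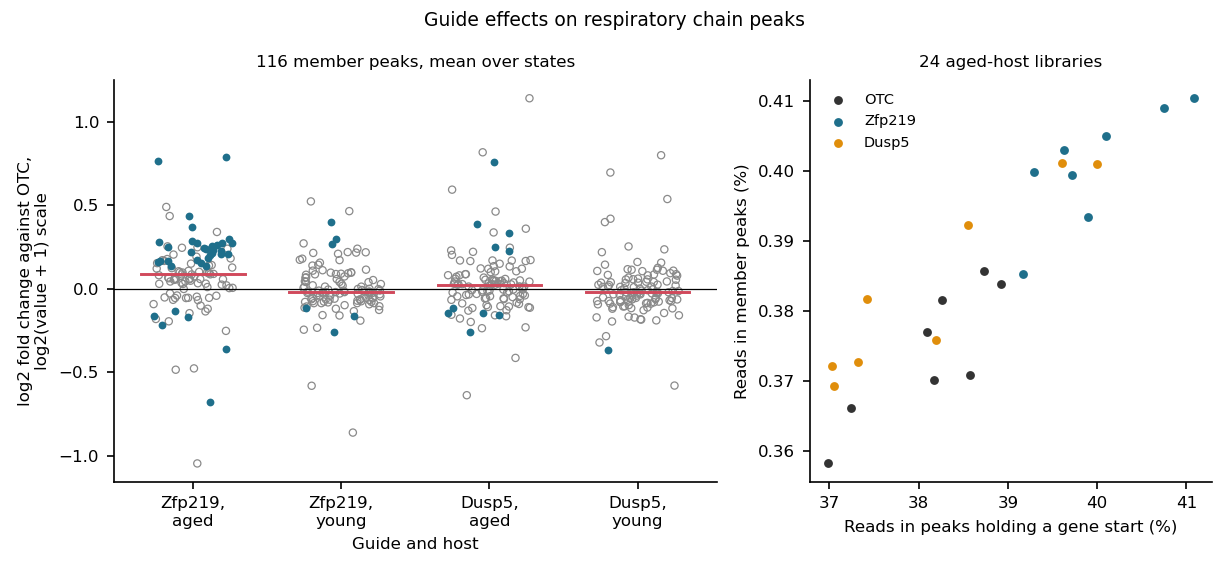
Left, log2 fold changes of 116 members against OTC, mean over states, for each guide and host; filled dots passed an adjusted p of 0.05 and red bars are medians (0.092 for Zfp219 in aged hosts). Right, share of reads in member peaks against share in peaks that hold a gene start for the 24 aged-host libraries, where Zfp219 libraries lie at 39.2% to 41.1% and OTC libraries at 37.0% to 38.9%.

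The Dusp5 guide moved fewer members. It was compared with the same OTC libraries as Zfp219, so the results of the guides are not independent. In aged hosts 10 members were called, 5 higher and 5 lower (12.2% of all peaks, 4.35% higher and 7.87% lower); quantile normalization gave 7 higher and 1 lower, and without aged OTC Tterm replicate 2 the count was 6. The summed CD4 T cell list was lower than in OTC, with no overlap, in 4 of 4 states (907 to 1364 against 1120 to 1605 over all libraries). The CD8 T cell and melanocyte lists were each lower in 3 states and the sorting markers in 2, and the B cell list was higher in 2. The part of these lists in the result was not tested. The Ndufaf6 internal peak had 93.6 to 154 normalized reads (median 112) in the 8 Dusp5 libraries and 28.4 to 113 (median 77.3) in the 8 OTC libraries, a log2 difference of 0.76 (SE 0.13, adjusted p = 1.04e-05, limma), above 0 in all 4 states. The Ndufs4 internal peak had 385 to 825 (median 669) against 331 to 603 (median 500; 0.39, SE 0.06, adjusted p = 1.39e-07). For both, the groups do not overlap within any state. Ndufa1, a small membrane subunit of complex I, had 181 to 232 against 109 to 182 (0.34, SE 0.10, adjusted p = 0.0203), in a peak shared with Rnf113a1.

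The members that fell with Dusp5 were strong start peaks. All peaks that hold a start also leaned down, with 2.3% higher and 9.05% lower over the 4 states, and 0.276% and 3.2% in Ttad alone. Cox14 had 1030 to 1229 normalized reads (median 1158) against 1209 to 1560 (median 1360), a log2 difference of -0.26 (SE 0.04, adjusted p = 1.46e-06, limma), lower in all 4 states though the groups overlap. Sdhaf1 had 1313 to 1677 against 1441 to 1755 (-0.14, SE 0.04, adjusted p = 0.0068). Atp5g1 had 1285 to 1628 against 1425 to 1927 (-0.16, SE 0.04, adjusted p = 0.00203), and Ndufs8 923 to 1091 against 993 to 1232 (-0.14, SE 0.04, adjusted p = 0.0159). Under quantile normalization only Cox14 was still called lower, and the Atp5g1 adjusted p was 0.497. In Ttad alone 7 members were called, 3 higher and 4 lower (2.88% of all peaks, 1.21% higher and 1.67% lower), with Ndufs4 at 555 and 694 against 426 and 476 and Cox14 at 1080 and 1131 against 1338 and 1488. This Ttad count was 3 higher and 0 lower under quantile normalization, 0 with the compared groups fitted alone, and 2 or 3 without any 1 of its 4 libraries.

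In young hosts 1 member was called with Dusp5 (3.82% of all peaks, 1.8% higher and 2.02% lower). It was a peak of the acyl carrier subunit Ndufab1 at chr7:122086726, away from the start and partly outside the gene. It had 113 to 249 normalized reads against 202 to 234 (log2 fold change -0.37, SE 0.10, adjusted p = 0.0168, limma). The call was lost without young Dusp5 Tprog replicate 2 (adjusted p = 0.0637), and without young OTC Ttran replicate 1 the count was 2. The difference between the ages was called in 2 members (4.0% of all peaks, 1.27% higher and 2.73% lower). The Dusp5 log2 fold change of Ndufaf6 was 0.81 in aged and 0.12 in young hosts (difference 0.70, SE 0.20, adjusted p = 0.0294), and that of Ndufa1 was 0.33 and -0.28 (0.61, SE 0.16, adjusted p = 0.0123). Without any 1 of 11 libraries, only 1 of the 2 was called.

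Other genes of the pathway were taken from a list of 34 genes outside the symbol rule. The list holds regulators, assembly factors, dynamics genes and the chain genes Cyc1 and Cycs. Of these 34 genes, 30 had 53 peaks. In Tprog against Tterm, 1 was higher and 4 lower in aged hosts (9.43% called, against 20.1% of all peaks), and 2 higher and 6 lower in young hosts (15.1%, against 26.5%). Of these calls, 0 in aged and 3 in young hosts were among the 27 peaks that hold a start, and 5 and 5 among the other 26. Of the 6 peaks in Nrf1, which encodes the NRF1 factor itself, the one at chr6:30131504 had group means of 39.1 normalized reads in aged Tprog and 133 in aged Tterm (log2 fold change -1.71, SE 0.28, adjusted p = 6.93e-07, limma), and 80.6 and 190.5 in young cells (-1.26, SE 0.25, adjusted p = 4.48e-05). A weak peak of Ppargc1a, the coactivator of mitochondrial biogenesis, went the other way, at 99.1 against 42.8 in aged and 68.4 against 24.7 in young cells (1.19, SE 0.37, adjusted p = 0.0129, and 1.38, SE 0.34, adjusted p = 0.000872). With Zfp219 in aged hosts 10 of the 53 peaks were higher and 0 lower (18.9% higher, against 12.1% of all peaks and 21.2% of those that hold a start), among them 3 of Gabpb1, a GABP subunit, and 2 of Nrf1. In aged against young OTC cells 5 were higher and 12 lower (9.43% and 22.6%, against 17.3% and 19.1% of all peaks), 4 of the lower ones in Nrf1.

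Across the 13 comparisons of groups, 37 of the 116 members were called in none, and 81 in none of the 6 state comparisons. Of the members called in any state comparison, 22 were among the 74 peaks at their own start and 9 among the 25 away from it. The same counts were not made over all peaks, so these describe the members only and have no background share beside them.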

How the data were processed

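ATAC-seq libraries of 48 sorted cell pools in 21 groups (15 groups of 2, 6 of 3) were analysed. The authors deposited 1 table of normalized signal per peak over 53868 peaks; per the submitters' processing notes, Bowtie2 2.2.9, SAMtools 1.3.1, Picard 2.8.0, MACS2 2.1.1 and DESeq2 1.28.1 were used with build mm10, and how each was set is not given in the sources used here. Low values in each library are whole multiples of 1 step, so reads were recovered for the count tests. Genes came from RefSeq coordinates (GRCm38.p6); exon and intron positions were not analysed here. limma 3.58.1 in R 4.3.3 was run on log2(value + 1) with 1 mean per group, after a check on simulated data; Benjamini-Hochberg adjustment covered all peaks. Alternatives were a pseudocount of 8, quantile normalization, the compared groups alone, a replicate block, edgeR 4.0.16, DESeq2 1.42.0, thinned reads, 1 value per group, narrower member rules and each library left out. Named members were up to 5 per direction and comparison, called and with groups apart within each state, the strongest of each complex per kb, and a list of genes; others named in the text were picked after their values were seen. Members and lists were chosen with earlier results of these data known. Some members are counted but not reported by name here.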

Additional observations from a re-analysis of the deposited data

Results flagged for a closer look

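All values here are differences between 2 log2 fold changes, aged minus young hosts, tested in limma. Between Tprog and Tterm of OTC cells, the difference was -0.61 at the Ndufaf8 start, -0.60 at the Atp5g1 start and -0.40 at the Atp5b start. For the Zfp219 guide against OTC, it was 0.88 at the internal peak of Ndufa10, 0.42 at an internal peak of Cox10, 0.40 at the start of Cox5b, 0.28 at the start of Cox7a2 and -0.85 at an internal peak of Ndufaf2. For the Dusp5 guide against OTC, it was 0.70 at an internal peak of Ndufaf6 and 0.61 at the start of Ndufa1. The guide results share the OTC libraries, and host age cannot be told apart from a batch that may go with the S numbers of the column names.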

How the results depend on the processing

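No named member changed direction in any alternative run: over 103 results and 1909 settings, 1580 kept their call, 329 lost it, and 36 results kept it throughout. With each library left out, counts of called members ran from 8 to 11 for aged and 10 to 20 for young Tprog against Tterm, 1 to 5 for Ttad against Tterm, 1 to 6 for Ttad against Tprog, and 4 to 10 for aged and 3 to 11 for young Ttran against Tprog. They ran from 29 to 37 for host age, 28 to 37, 1 to 6 and 2 to 6 for Zfp219 (aged, aged Ttad, young), and 6 to 13, 2 to 3 and 0 to 2 for Dusp5. The differences between the ages gave 2 in each run for states, 4 to 9 for Zfp219 and 1 to 2 for Dusp5. Those of host age, aged Zfp219 over all states and the state difference stayed within 1.5 times the reported counts.

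Other settings moved counts by more than 1.5 times as follows. With 1 value per group, host age gave 16 (5 higher, 11 lower), Zfp219 16 in aged (14 higher, 2 lower) and 0 in young hosts, and Dusp5 3 and 0. With thinned reads, young Tprog against Tterm gave 13, Ttad 3 against Tterm and 5 against Tprog, aged Ttran against Tprog 7, Zfp219 4 in aged Ttad and 2 in young hosts, and Dusp5 4 in aged Ttad and 3 in young hosts. Quantile normalization gave 5 for Ttad against Tprog, 5 and 3 for Zfp219 in aged Ttad and young hosts, and 3 and 2 for Dusp5 in the same. Fitting the compared groups alone gave 4 and 5 for Ttad against Tterm and Tprog, 6 for aged Ttran against Tprog, and for Dusp5 0 in aged Ttad and 3 in young hosts. edgeR gave 2 for Dusp5 in young hosts with or without its filter, and with the filter 8 for the Zfp219 difference between the ages. DESeq2 gave 11 for young Ttran against Tprog, 4 for Dusp5 in young hosts, and 6 and 9 for the differences between the ages of states and Zfp219.

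Members within 1 kb of a gene boundary gave 7 and 15 for aged and young Tprog against Tterm, 4 and 4 for Ttad against Tterm and Tprog, 3 for young Ttran against Tprog, and 1 and 1 for the Zfp219 and Dusp5 differences between the ages; these are fewer peaks by construction. Members that overlap a single gene gave 3 for Dusp5 in aged Ttad and 1 for the Dusp5 difference between the ages. For the other moves the cause was not tested.

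Over all peaks, the split of higher and lower calls moved by over 10 percentage points for Zfp219 in Ttad with the groups alone (1234 and 2513, from 1973 and 2459), and for Dusp5 in aged hosts with 1 value per group (427 and 1506, from 2344 and 4241). For Dusp5 in Ttad (653 and 899) it was 413 and 367 with quantile normalization, 27 and 142 alone, 263 and 580 with edgeR, 261 and 670 with its filter, and 392 and 861 with DESeq2. For the state difference between the ages (276 and 974) it was 304 and 346 with quantile normalization.

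Samples with the same replicate number did not deviate together (correlations from -0.018 to 0.017), so the numbers were not taken to pair them. The replicate block gave 12, 22, 7, 8, 13 and 7 called members in the state comparisons, in the order above, 31 for host age, 35, 8 and 5 for Zfp219, 10, 7 and 1 for Dusp5, and 2, 5 and 2 for the differences between the ages. Peaks with few reads limit what could be called: weak members differ between pools by counting alone.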
